A study of Mus musculus with 6 samples.

Results

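The EGR, NR4A and FOS early genes are a set of 10 genes that T cells switch on soon after their antigen receptor is engaged: Egr1, Egr2, Egr3, Nr4a1, Nr4a2, Nr4a3, Fos, Fosb, Ier3 and Cd69. They are given by name, with earlier results of these data known, and they hold 14 of the 45281 probes and 10 of the 19057 named genes on the Illumina mouse bead arrays. RNA came from peripheral Treg (pTreg) cells, CD4+ Foxp3-GFP+ regulatory T cells that had arisen from naive T cells after transfer into RAG1-/- mice, with 3 arrays of control (Ctrl) cells and 3 of cells without Blimp1 (CKO). Ctrl cells are labelled Prdm1+/+ CD4-Cre+ and carried Thy1.1, while CKO cells are labelled C57BL/6 Prdm1flox/flox CD4-Cre+ and carried Thy1.2. Both groups thus carried CD4-Cre, which acts in all T cells and not in Treg cells alone, and both kinds of naive cell, from spleen and lymph nodes of young adult Foxp3-GFP donors, were injected together in equal numbers into each host. RAG1-/- hosts make no T or B cells but keep their myeloid cells, and the cells were recovered weeks later. The labels of replicates 2 and 3 read P+I, which they do not spell out, and those of replicate 1 name no stimulus. One field of the labels calls the cells iTreg and another calls them peripheral Treg cells.

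Early genes need no new protein synthesis to be transcribed, because the factors that switch them on, such as CREB and SRF, lie ready in the resting cell and are activated by calcium and by the Ras and MAP kinase pathway. In T cells EGR factors bind GC-rich DNA, NR4A factors are orphan nuclear receptors that respond to how strongly the receptor is engaged, and FOS proteins join JUN proteins in the factor AP-1. In Treg cells NR4A factors take part in the expression of Foxp3. Phorbol ester with ionomycin, which the study used in its cytokine assays, bypasses the receptor and switches on the same genes.

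Promoters of 4 members are shown because their levels varied most between the arrays. Each is the 250 bases before the annotated start in RefSeq's annotation of GRCm38.p6, read on the strand of the gene, and capitals mark TGACG on either strand (CGTCA on the other), the half-site of the CRE element that CREB binds. They lie at chr12:85473640-85473889 on the plus strand for Fos, chr7:19310046-19310295 on the minus strand for Fosb, chr2:57124004-57124253 on the minus strand for Nr4a2 and chr4:48045055-48045304 on the plus strand for Nr4a3.
Fos: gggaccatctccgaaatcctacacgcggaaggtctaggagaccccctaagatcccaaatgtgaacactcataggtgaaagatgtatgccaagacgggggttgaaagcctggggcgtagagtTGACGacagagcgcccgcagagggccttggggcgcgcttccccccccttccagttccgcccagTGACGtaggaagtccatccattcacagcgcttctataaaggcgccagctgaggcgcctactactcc
Fosb: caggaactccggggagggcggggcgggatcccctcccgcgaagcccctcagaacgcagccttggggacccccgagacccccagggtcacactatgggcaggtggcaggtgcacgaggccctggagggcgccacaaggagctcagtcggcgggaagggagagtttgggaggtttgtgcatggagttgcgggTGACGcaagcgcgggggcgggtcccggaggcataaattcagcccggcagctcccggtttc
Nr4a2: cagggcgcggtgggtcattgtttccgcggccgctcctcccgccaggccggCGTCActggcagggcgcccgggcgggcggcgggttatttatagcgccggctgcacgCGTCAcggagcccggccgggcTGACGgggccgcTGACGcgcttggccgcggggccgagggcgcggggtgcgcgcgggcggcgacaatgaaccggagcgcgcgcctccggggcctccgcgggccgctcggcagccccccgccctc
Nr4a3: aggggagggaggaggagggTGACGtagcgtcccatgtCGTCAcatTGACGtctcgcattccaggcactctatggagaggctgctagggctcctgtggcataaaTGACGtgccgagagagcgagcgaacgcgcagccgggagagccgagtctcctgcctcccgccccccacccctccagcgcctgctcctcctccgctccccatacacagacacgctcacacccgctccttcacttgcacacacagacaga
The half-site stood 4 times in the windows of Nr4a2 and Nr4a3, 2 times in that of Fos and 1 time in that of Fosb. Of all 32851 promoter windows of this length, 17.8% held it, 3.9% held at least 2 and 0.137% held at least 4. Of the other members with a window, Nr4a1 held 4 half-sites, Egr2 held 2 in 3 of its 5 windows, some of which overlap, and Ier3 held 0. GCGNGGGCG, a site that EGR factors bind, was found 1 time each in the windows of Nr4a1, Nr4a2 and Fosb, and 4.7% of all windows held it. The full CRE (TGACGTCA, 1.55% of all windows), the AP-1 site (TGANTCA, 6.75%) and the NR4A site (AAAGGTCA, 1.34%) were in no member's window. GAAAGTG, the core of an element that Blimp1 binds, and the CArG box, to which SRF binds, were in 4 of the 5 windows of Egr2 and in no other member's, against 4.01% and 1.47% of all windows. All motifs were searched on both strands and may overlap each other, and a match shows letters, not binding. Egr1, Egr3 and Cd69 had no window in the table used.

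Facts of the arrays that bear on the results come first. Replicate 1 of both genotypes lay on slide 1, and replicates 2 and 3 lay on slide 2, so the stimulus label and the slide cannot be told apart. On each array 32.4% to 38.3% of the probes exceeded background. All 6 Treg markers with a probe were above background on every array, and Foxp3 had intensities of 480, 212 and 141 in Ctrl and 433, 165 and 216 in CKO replicates 1, 2 and 3. Prdm1, the gene of Blimp1, had intensities of 18.9, 50.9 and 49.2 in Ctrl and 561, 341 and 704 in CKO replicates 1, 2 and 3. The study also lists Prdm1 among the genes higher in CKO pTreg cells. Whether its probe lies inside the deleted exons was not stated, so this value does not check the deletion. Summed intensities of 9 myeloid markers, led by S100a8 and S100a9, were 23590, 2549 and 32864 in Ctrl and 12770, 1820 and 22833 in CKO replicates 1, 2 and 3. They were thus lowest in replicate 2 of both genotypes. Of the 9 markers, 5 were above background on all 6 arrays, and 1, Itgam, was above it on none, which shows nothing beyond its probe. In bulk samples, fewer cells of a type and less RNA per cell cannot be told apart.

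The first question was whether loss of Blimp1 moved the early genes in pTreg cells. Of the 10 genes, 9 were above background, and 0 of these 9 differed between CKO and Ctrl cells at an adjusted p under 0.05 in limma, where 0.271% of all 9597 genes tested did. By the looser thresholds of the study, which ask for 1.5-fold or more and a raw p under 0.05, it was also 0 of 9, against 7.44% of all genes (4.35% lower and 3.09% higher in CKO cells). Cells with the same replicate number were paired, and with the replicate as a block 0 of 9 passed an adjusted p under 0.05 (1.83% of all genes) and 1, Egr1, met the study's thresholds (12.0% of all genes). The median log2 fold change, CKO over Ctrl, was -0.10 over the 9 genes and 0.02 over all genes. CKO was below Ctrl in all 3 pairs for 4 genes, Egr1, Nr4a3, Fos and Cd69 (18.1% of all genes), and above it in all 3 pairs for 1, Egr2 (19.5% of all genes). The Ctrl and CKO arrays overlapped for every one of the 9 genes, and 13.0% of all genes showed no overlap.

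**Figure D1:**
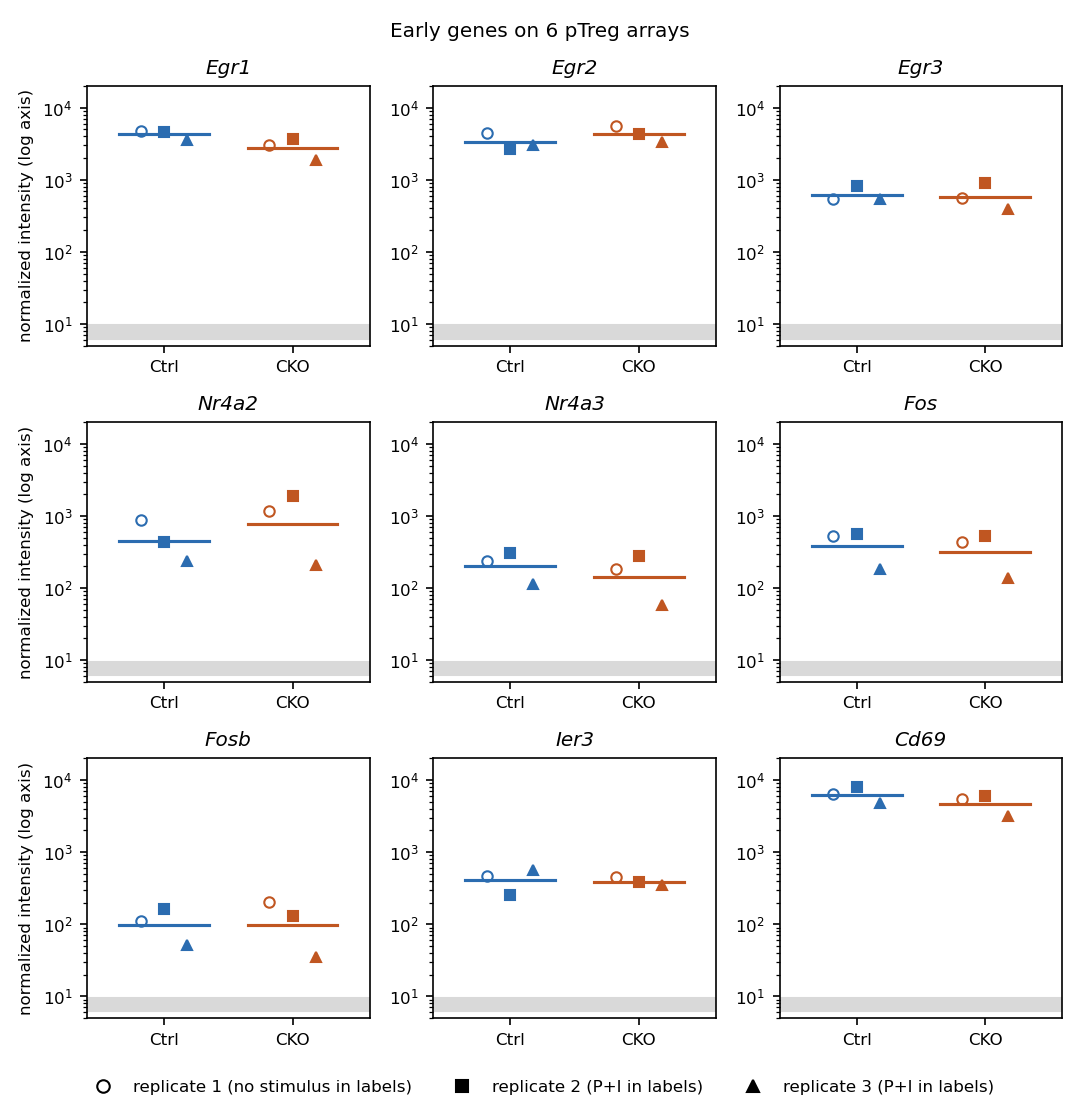
Normalized intensity (log axis) of the 9 early genes above background on each of the 6 pTreg arrays, 1 panel a gene, with Ctrl and CKO side by side and marker shape giving the replicate. Replicate 3 is the lowest array of both genotypes for 6 of the 9 genes, against 13.8% of all genes, a count made after the values were seen.

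Of the EGR genes, zinc finger transcription factors, Egr1 had the widest gap between genotypes relative to its error. Its intensity was 4775, 4642 and 3526 in Ctrl and 3074, 3650 and 1908 in CKO replicates 1, 2 and 3. Only CKO replicate 2 reached into the Ctrl range. CKO over Ctrl was a log2 fold change of -0.62 (SE 0.30), a ratio of 0.649 with a 95% confidence interval of 0.403 to 1.05 and an adjusted p of 0.68 in limma. Within the pairs the log2 differences were -0.64, -0.35 and -0.89, and with the replicate block the SE was 0.20 and the adjusted p was 0.19 in limma, with an unadjusted p of 0.0167.

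Egr2, which with Egr3 restrains T cell activation, lay in the other direction. Its intensity was 4450, 2700 and 3082 in Ctrl and 5610, 4366 and 3305 in CKO replicates 1, 2 and 3. Each CKO array was above its Ctrl partner, but the groups overlapped widely. The log2 fold change was 0.38 (SE 0.30), with an adjusted p of 0.88 in limma and an interval of the ratio from 0.808 to 2.08. The difference between the genotypes was 0.33, 0.69 and 0.10 in the 3 pairs on the log2 scale.

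Egr3, a close relative of Egr2, gave 537, 815 and 547 in Ctrl and 554, 895 and 395 in CKO replicates 1, 2 and 3. Replicate 2 was the highest array of both genotypes. The log2 fold change was -0.10 (SE 0.34), with an adjusted p of 0.98 in limma and an interval of the ratio from 0.539 to 1.62. The other probe of Egr3 was above background on 1 of 6 arrays.

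Among the NR4A genes, Nr4a1, which encodes Nur77, could not be followed, as its 1 probe was above background on 0 of 6 arrays. Its values lay between -7.55 and 2.34, which shows nothing about the gene beyond this probe. Nr4a2, which encodes Nurr1, was the most variable member. Its intensity was 889, 431 and 241 in Ctrl and 1169, 1864 and 208 in CKO replicates 1, 2 and 3. The highest array was 8.97-fold above the lowest, and both of these were CKO arrays labelled P+I. The log2 fold change of 0.76 (SE 0.81) had an adjusted p of 0.93 in limma, an interval of the ratio from 0.460 to 6.27 and pair differences of 0.40, 2.11 and -0.21.

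Nr4a3, which encodes Nor1, gave 238, 302 and 112 in Ctrl and 184, 275 and 57.4 in CKO replicates 1, 2 and 3 on its brightest probe. Replicate 3 was well below the other replicates in both genotypes. CKO lay below Ctrl in every pair, with a log2 fold change of -0.49 (SE 0.61), an adjusted p of 0.94 in limma and an interval of the ratio from 0.269 to 1.88. A second probe above background on all 6 arrays gave -0.17 (SE 0.44), with CKO above Ctrl in replicate 2. A further probe, above background on 5 arrays, gave 0.26 (SE 0.41), so the probes did not share a direction. On all 3 probes CKO replicate 3 was the lowest array, below background on the dimmest of them.

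Fos and Fosb encode partners of JUN proteins in AP-1. Fos had intensities of 533, 563 and 183 in Ctrl and 434, 533 and 139 in CKO replicates 1, 2 and 3. CKO was a little lower in each pair (log2 differences of -0.30, -0.08 and -0.40), which is small beside the drop from replicate 2 to replicate 3. The log2 fold change was -0.26 (SE 0.61), with an adjusted p of 0.98 in limma and an interval of the ratio from 0.317 to 2.21.

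Fosb gave 110, 165 and 51.1 in Ctrl and 204, 129 and 34.7 in CKO replicates 1, 2 and 3. Its highest and lowest arrays, 5.87-fold apart, were both of CKO cells. The log2 fold change was -0.01 (SE 0.68), with an adjusted p of 0.999 in limma and an interval of the ratio from 0.333 to 2.96. The pairs disagreed in direction, with log2 differences of 0.88, -0.36 and -0.56.

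Ier3, which encodes an early protein that acts on cell survival, had intensities of 474, 255 and 569 in Ctrl and 449, 385 and 345 in CKO replicates 1, 2 and 3. Unlike the FOS genes, its highest array was Ctrl replicate 3. The log2 fold change was -0.07 (SE 0.33), with an adjusted p of 0.99 in limma, an interval of the ratio from 0.563 to 1.61 and pair differences of -0.08, 0.59 and -0.72.

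Cd69 encodes a surface protein that appears early on activated T cells and holds them in tissue by removing the S1P receptor. Its intensity was 6475, 7918 and 4830 in Ctrl and 5438, 6040 and 3163 in CKO replicates 1, 2 and 3. Replicate 2 was highest and replicate 3 lowest in both genotypes, and CKO was below Ctrl in every pair, by log2 differences of -0.25, -0.39 and -0.61. The log2 fold change of -0.42 (SE 0.32) had an adjusted p of 0.87 in limma and an interval of the ratio from 0.447 to 1.25. With the replicate block the unadjusted p was 0.0626 and the adjusted p was 0.34 in limma. Its other probe, above background on 4 arrays, gave -0.49 (SE 0.30).

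**Figure D2:**
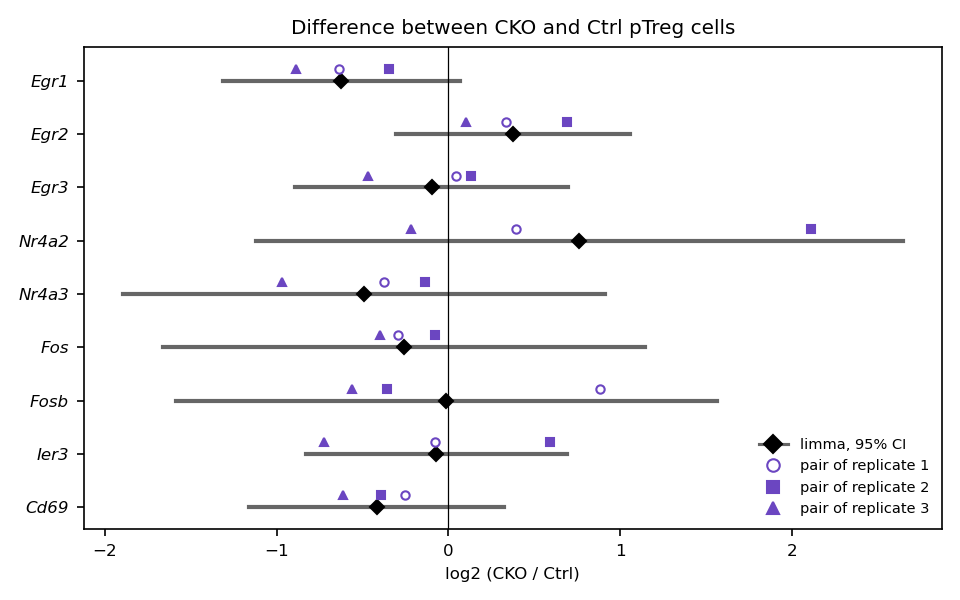
Log2 difference, CKO over Ctrl, of the 9 early genes, with the fitted value and its 95% confidence interval and the difference within each of the 3 pairs. All 9 intervals include 0, and only Egr1, Nr4a3, Fos and Cd69 are below 0 and Egr2 above 0 in every pair.

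For 8 of the 9 genes, all but Egr1, the log2 range over the 3 replicates exceeded the genotype difference in Ctrl and in CKO cells alike. This held for 73.8% of all genes too, and nothing particular to the early genes is read from it. Between the highest and the lowest of the 6 arrays, the fold was 8.97 for Nr4a2, 5.87 for Fosb, 5.27 for Nr4a3 and 4.05 for Fos. It was 2.50 for Egr1 and for Cd69, 2.27 for Egr3, 2.23 for Ier3 and 2.08 for Egr2.

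The next question was whether replicate 1, with no stimulus in its labels, stood below the replicates labelled P+I. Both replicate 1 arrays lay below all 4 arrays labelled P+I for 0 of the 9 genes and above them for 1, Egr2, while 30.2% of all genes had replicate 1 outside that range in either direction. In the deposited values, before the slides were normalized together, this was 0 of 9 genes. On the log2 scale, replicate 1 less the mean of replicates 2 and 3 was 1.19 for Nr4a2, 0.94 for Fosb, 0.70 for Fos, 0.59 for Egr2 and 0.46 for Nr4a3. It was 0.31 for Ier3, 0.23 for Egr1, 0.19 for Cd69 and -0.21 for Egr3. The median was 0.46 over the 9 genes and -0.09 over all genes, as a description with no test, since each label lay on 1 slide. The genotype difference was compared between slides by an interaction term: 0 of 9 genes had an unadjusted p under 0.05 in limma, against 2.43% of all genes, and the adjusted p of each was 0.9997. Its SE ran from 0.44 for Egr2 to 1.91 for Nr4a2 on the log2 scale, and the fit left out the pairing. With 1 pair on slide 1, the term cannot show that the genotype difference was alike on both slides.

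The samples that share the label P+I also differed from each other. Replicate 3 was the lowest array of each genotype for 6 of 9 genes, against 13.8% of all genes. The 6 were Egr1, Nr4a2, Nr4a3, Fos, Fosb and Cd69, and this count was not planned before the values were seen. A rule chosen after these values were seen asked for at least 2-fold lower levels in replicate 3 than in replicate 2 in both genotypes. On the brightest probe of each gene, 3 of 9 genes, Fos, Fosb and Nr4a3, met it, as did 1.47% of all genes. The opposite, at least 2-fold higher in replicate 3, held for 0 of 9 genes and for 2.19% of all genes. There is 1 array per genotype and replicate, so this comparison has no test. The labels give the Ctrl and CKO samples of each of these replicates a shared day, so the genotypes do not show the difference independently. In Ctrl and CKO cells the fold of replicate 2 over replicate 3 was 3.08 and 3.84 for Fos, 3.24 and 3.72 for Fosb, and 2.70 and 4.80 for Nr4a3. Nr4a3 met the rule on its brightest probe only. Its second probe above background on all 6 arrays went from 139 to 87.6 in Ctrl, less than 2-fold, and from 166 to 65.9 in CKO cells. The dimmest probe went from 15.7 to 9.65 in Ctrl cells, also less than 2-fold. For Nr4a2 it was 1.79 and 8.97, for Cd69 1.64 and 1.91, for Egr1 1.32 and 1.91, and for Egr3 1.49 and 2.27. Egr2, at 0.876 and 1.32, and Ier3, at 0.448 and 1.11, did not share a direction between the genotypes. Ranked within each array among the 9597 genes tested, Fos stood at percentiles 82.6 and 81.9 in replicate 2 and 63.6 and 58.9 in replicate 3 of Ctrl and CKO cells.

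**Figure D3:**
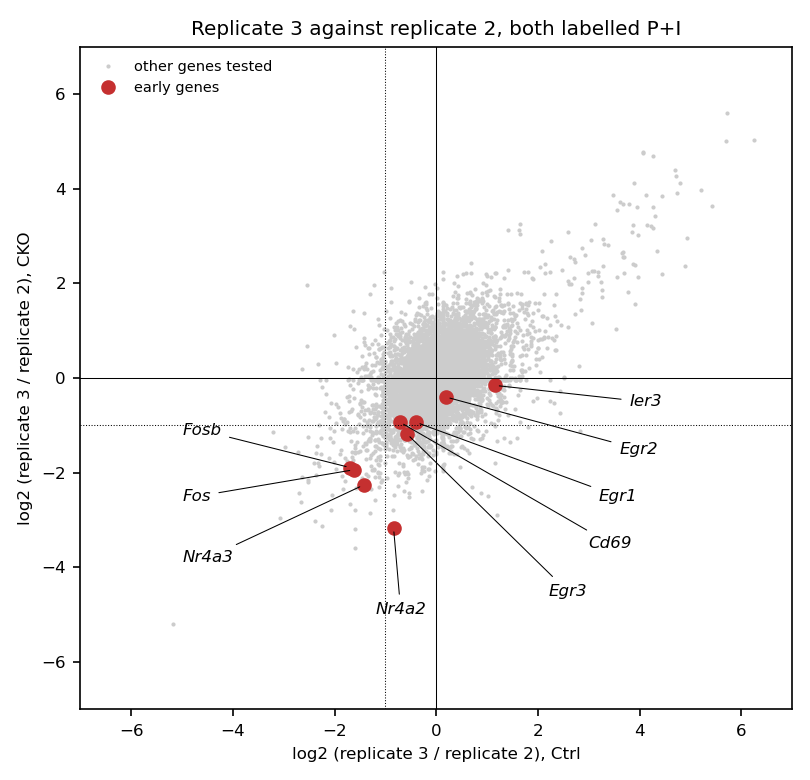
Log2 of replicate 3 over replicate 2 in Ctrl cells (x axis) and in CKO cells (y axis) for all 9597 genes tested (grey) and the 9 early genes (red), with dotted lines at 2-fold lower. On the brightest probe of each gene, Fos, Fosb and Nr4a3 lie below both dotted lines, against 1.47% of all genes.

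Other gene groups moved between replicates 2 and 3 as well. Of 45 tested genes on a list of 52 other early genes, 6 (13.3% of the 45) were at least 2-fold lower in replicate 3 in both genotypes. Over all genes tested the share was 1.47%. The 6 were Egr4, Pim1, Atf3, Junb, Cd83 and Gadd45b, named here after their values were seen. Junb, the AP-1 partner of FOS proteins, had intensities of 1956, 3762 and 1695 in Ctrl and 1627, 2806 and 1152 in CKO replicates 1, 2 and 3. None of the 20 cytokine and surface genes that phorbol ester with ionomycin induces did so. Their summed intensity was 108443, 77430 and 128240 in Ctrl and 95734, 92487 and 86253 in CKO replicates 1, 2 and 3, so replicate 1 was the lowest in neither genotype. Il2, which is among the genes induced in this way, lay between 6980 and 13107 on all arrays. Of 8 tested myeloid markers, 7 were at least 2-fold higher in replicate 3 than in replicate 2 in both genotypes, against 2.19% of all genes. The myeloid sums therefore moved against Fos, Fosb and Nr4a3 between these replicates. In replicate 1 the myeloid sums were above those of replicate 2, and the 3 genes were above their levels in replicate 3. Replicate 1 lies on the other slide, and its labels name no stimulus. The part of the myeloid markers in the result was not tested. Heat shock and handling genes, 14 with a probe, summed to 19842 and 19794 in replicate 2 and to 21645 and 24361 in replicate 3 of Ctrl and CKO cells. B cell markers lay between 25.9 and 40.5 in sum, with 0 of 4 above background on all arrays, and NK and CD8 T cell markers between 578 and 1100, with Cd8a, Klrb1c and Ncr1 above it on none. Erythroid markers summed to between 548 and 1908.

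**Figure D4:**
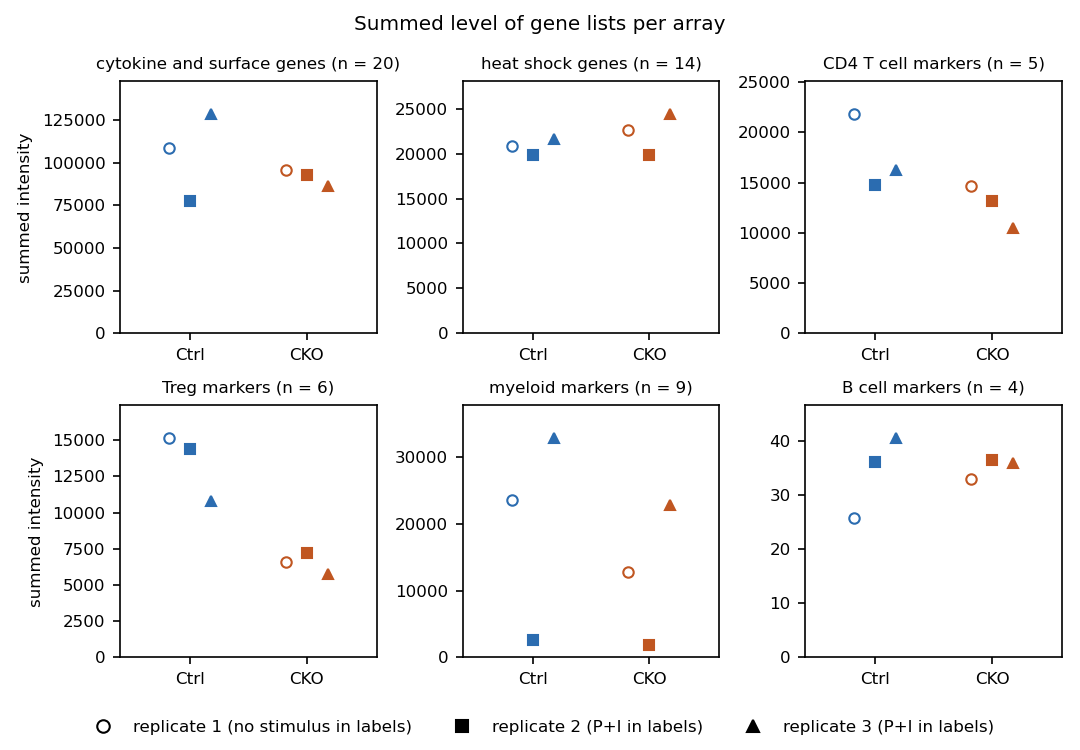
Summed normalized intensity per array of 6 gene lists, Ctrl and CKO side by side, with marker shape giving the replicate and n the genes with a probe. Myeloid markers sum to 2549 and 1820 in replicate 2 of Ctrl and CKO cells and to at least 12770 on the other arrays.

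Around the early genes, 5 lists of their pathway were compared between genotypes, in none of which a gene passed an adjusted p under 0.05 without the block in limma. Among 26 tested kinases, phosphatases and DNA-binding factors upstream, 4 met the study's thresholds, all lower in CKO cells, where 4.35% of all genes were lower, and the median log2 fold change was -0.06. Camk4, a calcium-dependent kinase that acts on CREB, went from 83.2 ± 12.9 to 28.9 ± 6.64 (SD, n = 3), and Ppp3ca, the catalytic subunit of calcineurin, from 132.6 ± 22.4 to 47.4 ± 20.7 (SD, n = 3). Both fell with the replicate block, at an adjusted p of 0.024 in limma. Rasgrp1, which activates Ras downstream of the receptor, and Hdac7, which holds back Nr4a1, had log2 fold changes of -0.74 and -0.69.

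The list of other early genes covers the response to T cell receptor or serum stimulation, so a gene on it need not be one that T cells switch on. Of its 45 tested genes, 4 met those thresholds as lower and 1 as higher, against 4.35% and 3.09% of all genes, with a median log2 fold change of -0.27. With the block 3 fell, where 1.83% of all genes passed in either direction. These 3 were Zfp36, an RNA-binding protein that shortens the life of cytokine and early gene messages, Gadd45a, a stress-induced gene, and Klf2, which drives the S1P receptor. In CKO against Ctrl cells Zfp36 went from 2049 ± 459 to 798 ± 111 (SD, n = 3), Gadd45a from 61.4 ± 24.9 to 18.8 ± 1.79 and Klf2 from 96.7 ± 41.6 to 41.5 ± 14.3. Their adjusted p with the block was 0.024, 0.041 and 0.035 in limma, and without it 0.11, 0.15 and 0.45. Plk2, a kinase induced by serum, had a log2 fold change of -0.93 (SE 0.31). The gene higher in CKO cells was Egr4, named after its value was seen, the EGR gene outside the 10, at 32.9 ± 15.0 and 89.7 ± 63.6 (SD, n = 3).

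Among 27 tested partners and reported targets of EGR and NR4A factors, those that met the thresholds were 3 higher and 2 lower in CKO cells, beside 7.44% of all genes in either direction, and the median log2 fold change was -0.25. Cxcr5, the receptor that leads cells to B cell follicles, rose with the block (log2 fold change 1.63, SE 0.30, adjusted p of 0.039 in limma). Tox, a factor of T cell exhaustion, had a log2 fold change of 1.08, Ikzf2, which encodes Helios, -1.45 and Rxra, a partner of NR4A receptors, -1.09. Of the 20 cytokine and surface genes, with a median of 0.12, 4 were higher (3.09% of all genes) and 2 lower (4.35% of all genes). With the block 3 rose and 1 fell, beside 1.83% of all genes in either direction, the latter being Ccl3, a chemokine gene named after its value was seen. Lif, Xcl1 and Tnfsf11, which encodes RANKL, rose with the block at log2 fold changes of 3.27, 1.66 and 1.10, and Lta, which encodes lymphotoxin alpha, had 1.33. In the list of genes that act with Cd69 on tissue exit and retention, 3 of 8 were lower (4.35% of all genes) and 0 higher (3.09% of all genes), with a median of -0.62. Besides Klf2 these were Gnai2, a G protein subunit through which S1P receptors signal, at -0.71, and Itgae, the integrin CD103, at -0.87. Among 12 tested heat shock and handling genes, with a median of 0.02, 1, Ddit3, met the thresholds, at -0.64. Treg marker sums were 10803 to 15126 in Ctrl and 5772 to 7198 in CKO cells, and CD4 T cell marker sums were 14752 to 21778 and 10521 to 14634. Their part in the values of the early genes was not tested.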

How the data were processed

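RNA of sorted pTreg cells, 3 Ctrl and 3 CKO samples, was hybridized to Illumina MouseWG 6v2 bead arrays. The study calls the samples biological replicates, and where labels do not say that they came from separate mice, p-values measure only the spread between these samples. The deposited values are intensities, quantile normalized by the authors after export from Genome Studio, with values below 0 after background subtraction (35.4% to 36.0% of probes). Their distributions match within a slide and not across slides. Detection p-values are not used here.

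All 6 arrays were quantile normalized together. The background of an array was set at percentile 95 of its 1506 probes for vomeronasal and olfactory receptors, lower values were floored there, and values were log2 transformed. Genes needed a probe above background on at least 2 arrays, and the brightest such probe stood for the gene. Of the probes, 34885 have 1 symbol, 18 several and 10378 none, and 34807 symbols were matched through gene IDs in the RefSeq table of GRCm38.p6. Groups, taken from the genotype label, were tested by limma 3.58.1 under R 4.3.3 (lmFit, eBayes, no block, as the methods name none), with Benjamini-Hochberg adjustment over 9597 genes. The steps were tested on simulated data. Rose and fell are kept for an adjusted p under 0.05. The number of arrays limits the precision, and an exact permutation test of 3 against 3 arrays cannot go below 0.10.

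Samples with one number were taken as pairs: labels of replicates 2 and 3 give each pair a shared day, and replicate 1 shares a slide. Deviations from the group means correlated within pairs at 0.51, 0.49 and 0.56 over genes. For replicate 1, the only pair on slide 1, this cannot tell a pair from a shared slide. The members and the 12 lists were chosen with earlier results of these data known. Named genes are all members, Prdm1 and Foxp3, up to 4 genes a list, those past an adjusted p of 0.05 first and then those at the study's thresholds by p, and the 5 genes with the most similar profile. Il2, S100a8, S100a9, Itgam and the genes said to be named after their values were seen lie outside this rule. Alternatives varied the normalization, floor, background level, filter, probe choice, block, eBayes settings and the arrays used.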

Additional observations from a re-analysis of the deposited data

How the results depend on the processing

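No member passed an adjusted p under 0.05 in limma under any alternative, the lowest being 0.19 for Egr1 with the replicate block. At the study's thresholds the count of members went from 0 to 1, Egr1 each time, with the replicate block, with no floor and log2(value + 50), with no filter on dim probes and with eBayes trend and robust settings. Leaving out single arrays it was 0 to 1, the 1 being Egr1 without CKO replicate 2 and Nr4a2 without CKO replicate 3. Leaving out single arrays, log2 fold changes ran from 0.12 (without CKO replicate 2) to 1.70 (without CKO replicate 3) for Nr4a2, from -0.82 (without CKO replicate 2) to -0.36 (without CKO replicate 3) for Egr1, from -0.61 (without Ctrl replicate 3) to -0.13 (without CKO replicate 3) for Cd69 and from 0.19 (without CKO replicate 1) to 0.58 (without Ctrl replicate 1) for Egr2. The count of members with replicate 1 outside the range of replicates 2 and 3 went from 1 to 0 with the deposited values. Of 144 alternative values of single genes, 132 kept their direction and 12 turned it. Fosb was 0.046 with no floor, and leaving out single arrays gave -0.55 to 0.73 for Fosb, -0.41 to 0.18 for Egr3, -0.96 to 0.16 for Nr4a3, -0.78 to 0.34 for Fos and -0.41 to 0.17 for Ier3. The cause was not tested.

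Over all genes, the 26 calls at an adjusted p under 0.05 became 176 with the replicate block, 149 with no filter, 52 with no floor, 50 with eBayes trend and robust settings, 16 with the slide as a block, 1 to 10 without single arrays and 0 with replicates 2 and 3 alone. By the study's thresholds 714 genes were called, 1156 with the block and 342 with no floor. The study's own count for pTreg cells at these thresholds is lower than 714, so the shares given here are not the study's. With 3 arrays a group, the intervals of all members tested but Egr3 and Ier3 reach past 2-fold in at least 1 direction.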

Other observations

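Over the 6 arrays the genes whose log2 profile was most like the mean standardized profile of the 9 early genes were Rmnd5b and Camk2n2 (Pearson r of 0.99), and Rab24, Rrad and Zswim4 (r of 0.98). The arrays share slides, pairs and normalization, 105 of 9588 other genes had r above 0.9, and the values are a description with no test. Rrad, a small GTPase gene, had intensities of 310.2, 315 and 161 in Ctrl and 276, 304 and 70.3 in CKO replicates 1, 2 and 3. It was thus lowest in replicate 3 of both genotypes. Among the early genes, r to this profile, of which each is a part, was 0.95 for Nr4a3 and Fos, 0.90 for Fosb, 0.87 for Cd69, 0.86 for Nr4a2, 0.80 for Egr1, 0.74 for Egr3, 0.49 for Egr2 and 0.03 for Ier3.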
